A study of Drosophila melanogaster with 21 samples.

Results

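The apoptosis regulators and TNF receptor genes described here are 10 genes of Drosophila melanogaster, taken by symbol from the 17558 genes of a wing disc RNA-seq count table: p53, rpr, hid, Diap1, Dark, Dronc, Drice, Dredd, egr and wgn. They were picked by name and role, with earlier results of these data known, and all 10 passed the filter on low counts. The libraries hold messenger RNA from wing imaginal discs, the pouches of larval epithelium that give rise to the wing, of male larvae of instar 3 kept at 25 °C. The males lacked parts of the MSL complex, the assembly of proteins and non-coding RNAs that raises transcription of the single X of males, and the series asks what its loss does to expression of the X and the autosomes. The mutant groups were homozygous for the msl-2.227 allele (4 libraries), homozygous for msl-1.L60 (3 libraries), homozygous for mle.9 (3 libraries) or mutant for roX1.SMC17A and a roX2 deletion together (3 libraries). The controls carried the msl-2 allele (3 libraries), the msl-1 allele (3 libraries) or the mle allele (2 libraries) over CyO-GFP, a rearranged second chromosome that carries a GFP marker. The roX1 roX2 mutants have no heterozygotes of their own in the labels and were set against the mean of the 3 heterozygous groups, so their comparison shares its control libraries with the other 3. Each genotype is represented by 1 allele or 1 allele pair, and the heterozygotes carry a balancer that the mutants lack. For second-chromosome genes such as Dark and egr (2R), mutation and exchange of a balancer copy therefore cannot be told apart. This holds in all 4 comparisons, since the roX1 roX2 mutants were also set against balancer carriers. It also covers pathway genes named below, among them Ku80, mre11, rad50, Traf4 and ced-6.

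In flies, a cell is committed to apoptosis when the IAP antagonists Reaper and Hid bind Diap1, the inhibitor that otherwise holds caspases in check. The initiator caspase Dronc, freed from Diap1, is activated on the adaptor Dark and then cleaves the effector caspase Drice. p53 is a transcription factor that induces rpr and hid after DNA damage, and Eiger, the TNF ligand encoded by egr, signals through the receptors Wengen (wgn) and Grindelwald (grnd) to the JNK kinase cascade. The wing disc is a standard tissue for all of these, because it replaces cells lost to apoptosis during growth.

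The libraries held 830905 to 4131600 counts. Heterozygous msl-1 replicate 2 stood apart from the rest: it had the lowest total, the largest number of genes with reads (16540), the highest share of mitochondrial counts (6.17%, against 0.972% to 3.73% elsewhere) and a median correlation of 0.552 with its own group. Fits were therefore run over all 21 libraries and again over 20 libraries without it, with 11420 and 10367 genes tested. Calls are genes with an adjusted p under 0.05 in edgeR's quasi-likelihood test, with Benjamini-Hochberg adjustment over all genes tested. Levels are CPM, counts relative to the scaled total of each library, with the scaling of the 21 libraries, changes are log2 fold changes of mutant over heterozygous discs with their standard error (SE), and a pair of estimates gives the 21-library fit and then the 20-library fit. The p-values measure the spread between libraries, which may be technical, since the labels do not say that replicates came from separate animals. Where groups are said not to overlap, this describes the values and is not a test. Such separation was frequent among X genes, as given below for wgn, and its share over all genes is not reported here. A bulk measurement does not tell a change in the number of cells that express a gene from a change in RNA per cell. Of 7 wing disc markers 5 were matched, and all 5 were read in every group. The same held for every marker of the other cell types below, so this does not show disc identity. The summed level of the 5 was 757 to 772 CPM in msl-1 mutants, against 1360 and 1370 CPM in msl-1 heterozygotes and 565 CPM in heterozygous replicate 2. It was 654 to 1010 CPM in mle mutants, against 1180 to 1520 CPM in mle heterozygotes. In msl-2 mutants it was 1000 to 1260 CPM, against 1240 to 1270 CPM in msl-2 heterozygotes, and in roX1 roX2 mutants 952 to 1220 CPM.

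**Figure D1:**
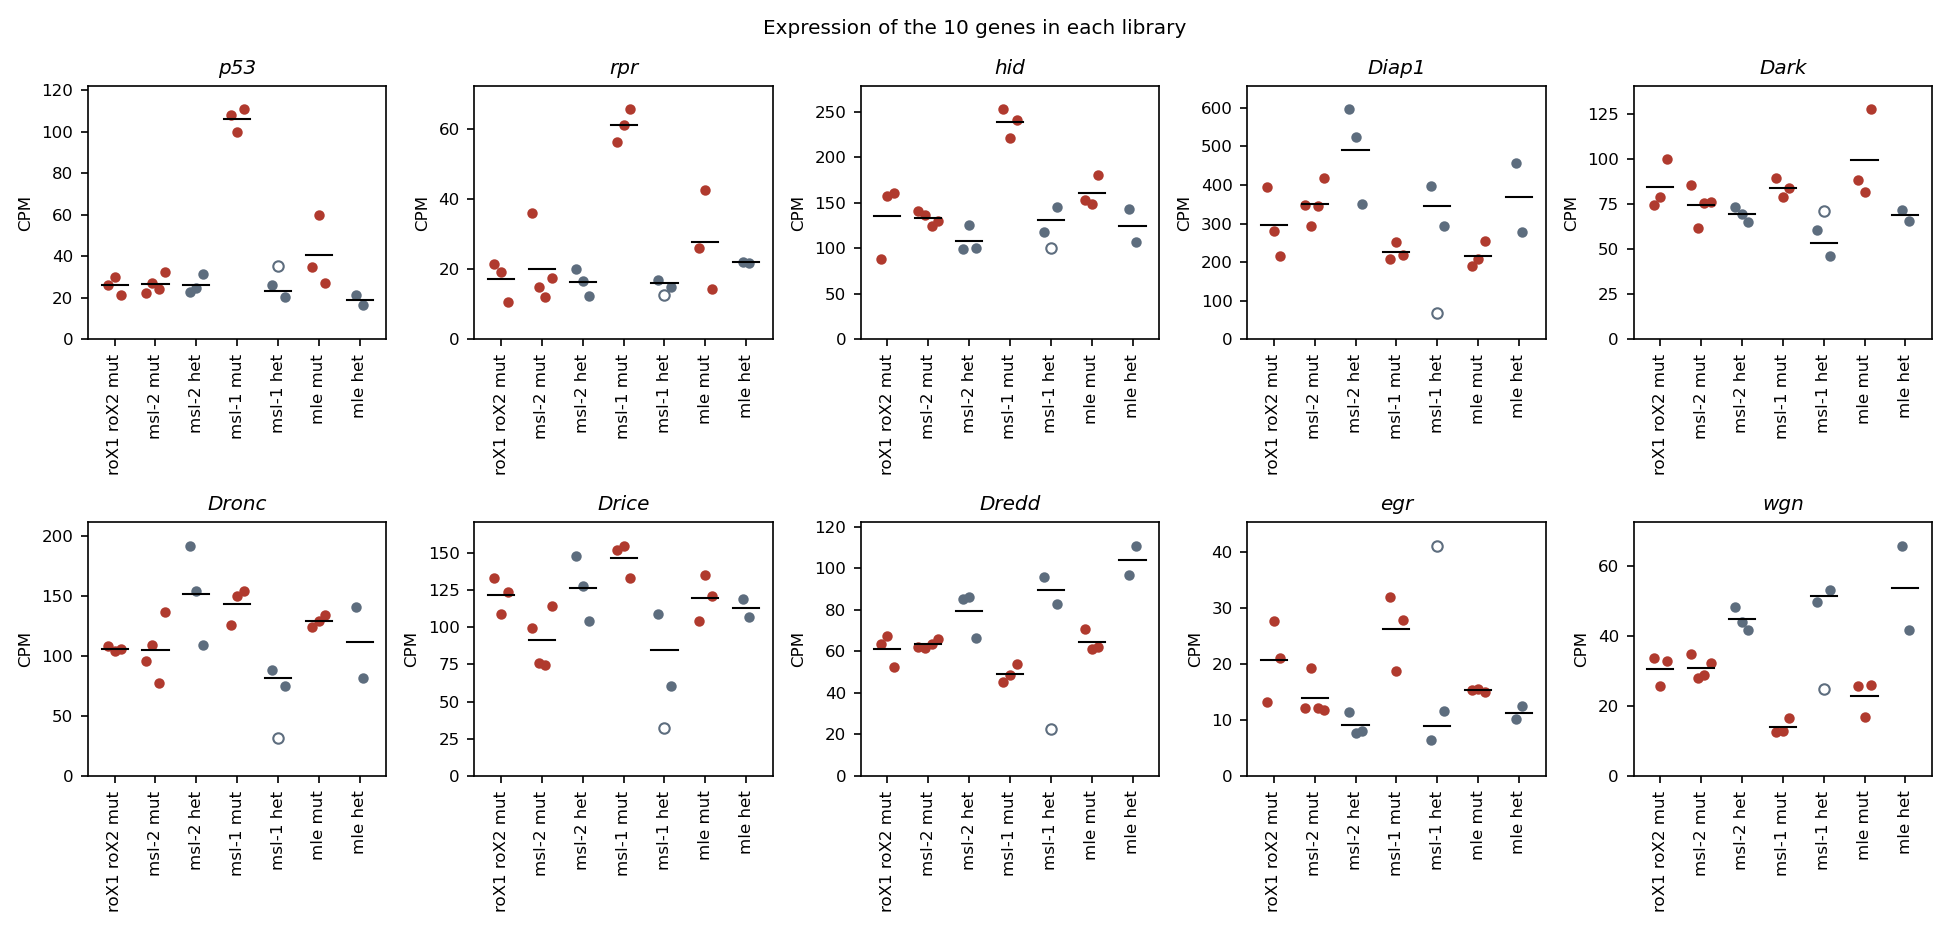
CPM of each of the 10 genes in every library, with the mutants of each stock (red) to the left of their heterozygotes (grey), the roX1 roX2 mutants at the far left, and a black line at the group mean. Heterozygous msl-1 replicate 2 is an open circle and is left out of its line. p53, rpr and hid stand highest in the 3 msl-1 mutant libraries, where wgn stands lowest.

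Calls were most frequent in msl-1 mutants and absent in msl-2 mutants. In msl-1 mutants 6 of the 10 genes passed over 21 libraries, 5 higher (p53, rpr, hid, Dronc and Drice) and 1 lower (wgn), where 38.2% of all genes passed, 12.8% higher and 25.4% lower. Over 20 libraries 9 of the 10 passed, with Dark and egr added to the higher genes and Dredd to the lower ones, where 23.1% of all genes passed, 10.4% higher and 12.7% lower. The median log2 fold change of the 10 genes in msl-1 mutants was 0.74 over 21 and 0.76 over 20 libraries, beside -0.17 and -0.12 over all genes tested. In mle mutants 2 of the 10 passed over 21 libraries, p53 higher and wgn lower, with 3.35% of all genes (1.38% higher and 1.97% lower). Over 20 libraries 5 passed, Dark and p53 higher and Dredd, Diap1 and wgn lower, with 13% of all genes (4.06% higher and 8.96% lower). None passed in msl-2 mutants in either fit by edgeR, where 1.21% and 10.7% of all genes did; at an unadjusted p under 0.05 the count over 21 libraries was 1, wgn, with 13% of all genes, and over 20 libraries it was 6, wgn, Dronc, Drice, Diap1, egr and Dredd, with 28.6% of all genes. By DESeq2 none passed either. None passed in roX1 roX2 mutants over 21 libraries, with 5.33% of all genes (1 by DESeq2, wgn). At an unadjusted p under 0.05 the count there was 2, Dark and wgn, with 15.8% of all genes. Over 20 libraries 4 passed there, Dark and egr higher and Dredd and wgn lower, beside 14.4% of all genes (6.81% higher and 7.56% lower).

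**Figure D2:**
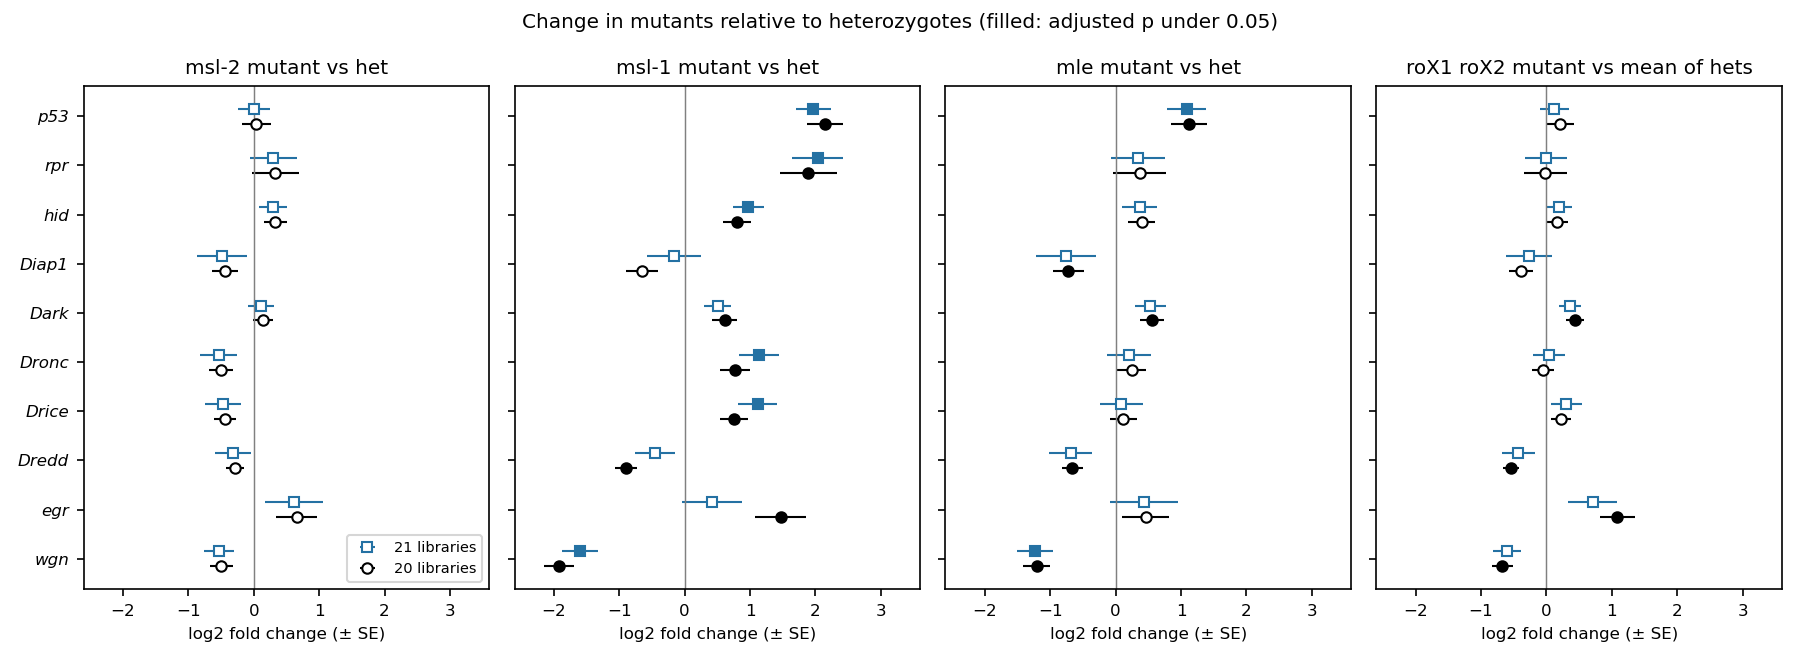
Log2 fold change with its SE (x axis) of each gene (rows) in the 4 comparisons, over 21 libraries (squares) and over 20 libraries (circles), with filled symbols for an adjusted p under 0.05. The upward shift of p53, rpr, hid, Dronc and Drice stands in the msl-1 panel, while wgn lies below 0 in all 4 panels.

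p53 (FBgn0039044; 3R, 23049657 to 23054082, minus strand) encodes the damage-responsive transcription factor at the head of this pathway. It was at 108, 100 and 111 CPM in msl-1 mutants, against 26.3, 35.4 and 20.3 CPM in msl-1 heterozygotes. All mutant libraries lay above all heterozygous ones, with no other group reaching them. The log2 fold change was 1.97 ± 0.27 over 21 libraries (adjusted p = 2.98e-05) and 2.14 ± 0.28 over 20 (adjusted p = 6.19e-06). Fitted on the msl-1 groups alone with heterozygous replicate 2 kept, it was 1.57 and did not pass (adjusted p = 0.0615); no alternative ended the call over 20 libraries.

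In mle mutants p53 was at 34.8, 60 and 27.1 CPM, against 21.6 and 16.5 CPM in mle heterozygotes. The groups did not overlap, but mutant replicate 2 was far above the others. The log2 fold change was 1.09 ± 0.30 (adjusted p = 0.0476) and 1.12 ± 0.27 (adjusted p = 0.0063). Without mutant replicate 2 it was 0.69 over 21 libraries (adjusted p = 0.327) and 0.71 over 20 (adjusted p = 0.0587). The 21-library call was lost in 20 of 27 alternatives, among them no filter on low counts (adjusted p = 0.184) and the mle groups alone (adjusted p = 0.0671), and the 20-library call in 4 of 25. In the 20-library fit it was lost with the mle groups alone as well, and without heterozygous replicate 1 (1.31, adjusted p = 0.0515) or replicate 2 (0.96, adjusted p = 0.113). p53 was at 22.3, 27.1, 24.3 and 32.5 CPM in msl-2 mutants, against 22.8, 24.7 and 31.7 CPM in msl-2 heterozygotes, 2 sets of values that overlap throughout. The roX1 roX2 mutants, at 26.4, 30.3 and 21.6 CPM, lay inside the range of the 8 heterozygous libraries (lowest 16.5, median 23.8, highest 35.4 CPM). An antisense gene, asRNA:CR46089, shares 812 exon bases with p53, and the strand setting of the counting is not given in the sources used here. It was at 19.6 ± 2.4 CPM (SD, n = 3) in msl-1 mutants and 16.9 ± 16.6 CPM (SD, n = 3) in msl-1 heterozygotes. The heterozygous libraries ran from 6.32 to 36.1 CPM. Over 20 libraries the antisense gene was itself higher in msl-1 mutants (1.38 ± 0.38, adjusted p = 0.0119). Its part in the p53 counts was not tested.

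The IAP antagonist genes rpr (FBgn0011706; 3L, 18397535 to 18398435, minus strand) and hid (FBgn0003997; 3L, 18167745 to 18185641, minus strand) lie in the same chromosomal region. Both encode proteins that bind Diap1 and so release caspases. rpr was at 56.3, 61.2 and 65.7 CPM in msl-1 mutants, against 16.9, 12.7 and 15 CPM in msl-1 heterozygotes. hid was at 253, 221 and 241 CPM in msl-1 mutants, against 118, 99.9 and 145 CPM in msl-1 heterozygotes. For both genes the msl-1 mutant libraries lay above every other library of the series. rpr rose by 2.04 ± 0.39 (adjusted p = 0.00107) and 1.89 ± 0.44 (adjusted p = 0.00378). hid rose by 0.98 ± 0.24 (adjusted p = 0.0061) and 0.80 ± 0.21 (adjusted p = 0.00733). Over 20 libraries the rpr call was lost without heterozygous replicate 3 (1.84, adjusted p = 0.07) and the hid call without heterozygous replicate 1 (0.68, adjusted p = 0.0672), each of which leaves a single msl-1 control library. Over 21 libraries hid also missed with the msl-1 groups alone in the fit (0.64, adjusted p = 0.165).

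Neither gene passed in the other stocks. In mle mutants rpr was at 26.2, 42.7 and 14.5 CPM, against 22.2 and 21.7 CPM in mle heterozygotes, and replicate 2, the library with the most p53, again held the highest value. In msl-2 mutants rpr was at 36, 15, 12.2 and 17.4 CPM, against 20.2, 16.7 and 12.3 CPM in msl-2 heterozygotes, groups that overlap except for mutant replicate 1. hid was at 141, 137, 125 and 130 CPM in msl-2 mutants, against 99.7, 126 and 99.9 CPM in msl-2 heterozygotes (0.30 ± 0.22, adjusted p = 0.553, and 0.33 ± 0.17, adjusted p = 0.205). In roX1 roX2 mutants hid was at 88.3, 157 and 161 CPM and rpr at 21.6, 19.3 and 10.6 CPM, against 99.7 to 145 CPM of hid and 12.3 to 22.2 CPM of rpr in the 8 heterozygous libraries. The related antagonist genes grim and skl had too few reads to be tested. Both had their highest value in heterozygous msl-1 replicate 2 (15.8 CPM of grim and 21.5 CPM of skl) and stood at or below 2.88 and 2.59 CPM in all other libraries.

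The apoptosome consists of Dark (FBgn0263864; 2R, 17020027 to 17026703, plus strand), an adaptor related to mammalian Apaf1, and the initiator caspase Dronc (FBgn0026404; 3L, 9968479 to 9971002, plus strand). Drice (FBgn0019972; 3R, 29799658 to 29801584, plus strand) is the effector caspase that Dronc cleaves. Dronc was at 126, 150 and 154 CPM in msl-1 mutants, against 88.5, 31.6 and 74.8 CPM in msl-1 heterozygotes. Drice was at 152, 155 and 133 CPM in msl-1 mutants, against 109, 32.3 and 60.8 CPM in msl-1 heterozygotes. Neither gene's groups overlap, and heterozygous replicate 2 held the lowest value of each. Dronc rose by 1.14 ± 0.31 (adjusted p = 0.0108) and 0.77 ± 0.23 (adjusted p = 0.0196). Drice rose by 1.12 ± 0.30 (adjusted p = 0.0102) and 0.75 ± 0.21 (adjusted p = 0.013). Over 21 libraries both calls were lost in 2 of 27 alternatives, one of them the fit on the msl-1 groups alone (adjusted p = 0.0992 for Dronc and 0.124 for Drice). Over 20 libraries neither passed without heterozygous replicate 3 (Dronc 0.69, adjusted p = 0.194; Drice 0.41, adjusted p = 0.358), and Dronc also missed without msl-1 mutant replicate 2 (adjusted p = 0.0575) or replicate 3 (adjusted p = 0.0595).

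The control group matters for these caspases. Dronc averaged 143 ± 15.4 CPM in msl-1 mutants (SD, n = 3), no higher than the 152 ± 41.6 CPM of msl-2 heterozygotes (SD, n = 3), and Drice averaged 147 ± 12.3 and 126 ± 21.9 CPM in the same groups. Set against msl-2 heterozygotes, the msl-1 heterozygotes were themselves lower in Dronc, by -1.22 ± 0.31 over 21 libraries (adjusted p = 0.00904) and -0.84 ± 0.23 over 20 (adjusted p = 0.0285). Drice differed in the same comparison by -0.90 ± 0.30 over 21 libraries (adjusted p = 0.0232) and by -0.53 ± 0.21 over 20 (adjusted p = 0.0968, not passed). No other of the 10 genes passed between these heterozygous groups, where 42.4% of all genes passed over 21 and 10.4% over 20 libraries. The estimates of Dronc in msl-2 mutants were -0.53 ± 0.28 (adjusted p = 0.421) and -0.50 ± 0.19 (adjusted p = 0.0812), and those of Drice were -0.47 ± 0.27 (adjusted p = 0.461) and -0.44 ± 0.17 (adjusted p = 0.0964). Over 20 libraries Dronc passed there without msl-2 mutant replicate 4 (-0.65, adjusted p = 0.0315) or heterozygous replicate 4 (-0.71, adjusted p = 0.0221), and Drice without mutant replicate 4 (-0.55, adjusted p = 0.0476).

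Dark differed by less, and its highest group was the mle mutants. It was at 88.3, 82 and 128 CPM in mle mutants, against 71.7 and 66 CPM in mle heterozygotes, and at 89.9, 78.9 and 84 CPM in msl-1 mutants, against 60.6, 71.5 and 46.3 CPM in msl-1 heterozygotes. In both stocks the groups did not overlap, for which no share over all genes is given here. Over 21 libraries it passed in none of the 4 comparisons, although with a filter of 1 CPM in 3 libraries it did in msl-1 mutants (0.63, adjusted p = 0.0446). Over 20 libraries it passed in 3, at 0.61 ± 0.19 in msl-1 (adjusted p = 0.0254), 0.56 ± 0.18 in mle (adjusted p = 0.0439) and 0.43 ± 0.14 in roX1 roX2 mutants (adjusted p = 0.0379). The msl-1 call was lost in 3 of its 25 alternatives, the mle call in 16 of 25 and the roX1 roX2 call in 17 of 28, including DESeq2 (adjusted p = 0.0573). asRNA:CR44390, on the opposite strand, shares 2779 exon bases with Dark: over 20 libraries its log2 fold changes were 0.66 ± 0.21 in msl-1 (adjusted p = 0.0283), 0.54 ± 0.20 in mle (adjusted p = 0.0835) and 0.53 ± 0.15 in roX1 roX2 mutants (adjusted p = 0.0188). Without the strand setting, reads of the pair cannot be told apart.

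Dredd (FBgn0020381; X, 633622 to 635545, minus strand) is an X-linked caspase gene whose product acts in the Imd immune pathway, where it cleaves Relish. It was at 45.3, 48.8 and 53.8 CPM in msl-1 mutants, against 95.9, 22.8 and 83 CPM in msl-1 heterozygotes. The 22.8 CPM belong to heterozygous replicate 2, and the groups are separate only without it. The log2 fold change was -0.45 ± 0.31 over 21 libraries (adjusted p = 0.237) and -0.90 ± 0.17 over 20 (adjusted p = 0.000397). Of the X genes tested over 21 libraries, 59.3% had all mle mutant libraries below all mle heterozygous ones. Dredd was one of them, at 70.7, 61.3 and 62 CPM in mle mutants, against 96.6 and 111 CPM in mle heterozygotes. Over 21 libraries that was -0.69 ± 0.33 (adjusted p = 0.367) and over 20 libraries -0.66 ± 0.16 (adjusted p = 0.00603), a call lost without mle heterozygous replicate 2 (-0.54, adjusted p = 0.123). The roX1 roX2 mutants, at 63.7, 67.3 and 52.4 CPM, were lower by -0.54 ± 0.13 over 20 libraries (adjusted p = 0.00464), and not over 21 (-0.43 ± 0.25, adjusted p = 0.46). Against msl-2 heterozygotes alone the roX1 roX2 value was -0.33 and did not pass (adjusted p = 0.129). In msl-2 mutants Dredd was at 62.3, 61.7, 63.5 and 66.1 CPM, against 85.2, 86.2 and 66.3 CPM in msl-2 heterozygotes, and neither estimate passed (-0.32 ± 0.28, adjusted p = 0.604, and -0.28 ± 0.14, adjusted p = 0.169). The 4 mutant libraries lay close together, all below the lowest heterozygous one but only by a narrow margin. In this stock 40.9% of the X genes tested over 21 libraries had all mutant libraries below.

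Diap1 (FBgn0260635; 3L, 16038410 to 16051034, minus strand) encodes the caspase inhibitor that Reaper and Hid bind, and its spread between libraries was wide. It was at 190, 208 and 254 CPM in mle mutants, against 457 and 279 CPM in mle heterozygotes. In msl-1 mutants it was at 209, 252 and 218 CPM, against 398, 68.3 and 294 CPM in msl-1 heterozygotes. In msl-2 mutants it was at 349, 295, 346 and 418 CPM, against 597, 524 and 352 CPM in msl-2 heterozygotes. The mle groups did not overlap; the msl-1 groups overlapped only through heterozygous replicate 2, and the msl-2 groups overlapped through mutant replicate 4. The fold change in mle mutants was -0.76 ± 0.46 over 21 libraries (adjusted p = 0.571) and -0.72 ± 0.24 over 20 (adjusted p = 0.0467), a call lost in 16 of 25 alternatives. In msl-1 mutants it was -0.16 ± 0.42 (adjusted p = 0.767) and -0.65 ± 0.24 (adjusted p = 0.053). The 20-library value passed in 5 of 25 alternatives, among them DESeq2 (adjusted p = 0.04) and the msl-1 groups alone (-0.72, adjusted p = 0.000284). An antisense gene, asRNA:CR45889, shares 347 exon bases with Diap1 and was at 1.94 ± 1.68 CPM (SD, n = 3) in msl-1 mutants, against 10.5 ± 4.37 CPM (SD, n = 3) in msl-1 heterozygotes.

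The TNF ligand gene egr (FBgn0033483; 2R, 10078366 to 10084210, plus strand) had as few as 12 reads in a library. It was at 32, 18.7 and 27.8 CPM in msl-1 mutants, against 6.32, 41.1 and 11.6 CPM in msl-1 heterozygotes. Heterozygous replicate 2 held the highest egr value of the whole series, and without it the groups were separate. Over 21 libraries the change was 0.42 ± 0.46 (adjusted p = 0.463). Over 20 it was 1.47 ± 0.38 (adjusted p = 0.00764), a call lost without heterozygous replicate 1 (1.12, adjusted p = 0.0818). In roX1 roX2 mutants egr was at 13.2, 27.7 and 21.1 CPM, against 6.32 to 12.4 CPM in the 7 heterozygous libraries other than msl-1 replicate 2. This was 1.08 ± 0.26 over 20 libraries (adjusted p = 0.00679) and 0.70 ± 0.37 over 21 (adjusted p = 0.379). It did not pass over 20 libraries without roX1 roX2 replicate 3, the highest of them (0.80, adjusted p = 0.0924), nor against msl-1 (adjusted p = 0.0689) or mle heterozygotes alone (adjusted p = 0.132). In mle mutants egr was at 15.4, 15.5 and 14.9 CPM, against 10.2 and 12.4 CPM in mle heterozygotes, and in msl-2 mutants at 12.1, 19.2, 12.2 and 11.8 CPM, against 11.4, 7.59 and 8.09 CPM in msl-2 heterozygotes. In both stocks the mutant libraries lay above the heterozygous ones, which is no test of a difference, and neither estimate passed in either fit.

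wgn (FBgn0030941; X, 18624042 to 18634908, minus strand) encodes a TNF receptor and was lower in more comparisons than any other of the 10 genes over 21 libraries. It was at 12.5, 12.9 and 16.6 CPM in msl-1 mutants, against 49.5, 24.7 and 53.1 CPM in msl-1 heterozygotes. It was at 25.6, 16.8 and 26 CPM in mle mutants, against 65.7 and 41.6 CPM in mle heterozygotes. It was at 34.8, 27.9, 28.8 and 32.1 CPM in msl-2 mutants, against 48.3, 44 and 41.7 CPM in msl-2 heterozygotes. In each stock all mutant libraries lay below all heterozygous ones, as did those of 40.9% (msl-2), 20.7% (msl-1) and 59.3% (mle) of the X genes tested over 21 libraries.

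In msl-1 mutants wgn fell by 1.60 ± 0.28 (adjusted p = 0.000423) and, over 20 libraries, by 1.92 ± 0.23 (adjusted p = 1.83e-06). That call held in all 27 alternatives over 21 libraries and in all 25 over 20. In mle mutants it fell by 1.24 ± 0.28 (adjusted p = 0.0133) and by 1.20 ± 0.21 (adjusted p = 0.000315). The mle call over 21 libraries was lost without mutant replicate 2 (-1.06, adjusted p = 0.0938) and without a filter (-1.25, adjusted p = 0.0979). It was also lost with the replicate block (-1.33, adjusted p = 0.0539). Without mle heterozygous replicate 1, the higher control, the change was -0.88 over 21 and -0.87 over 20 libraries. Without heterozygous replicate 2 it was -1.54 over 21. Each of these fits left a single mle control, and the call was lost. More genes were then tested (15820 and 15819 over 21 libraries, against 11420). The roX1 roX2 mutants were at 33.5, 25.6 and 32.7 CPM, which was -0.61 ± 0.21 over 21 libraries (adjusted p = 0.122) and -0.68 ± 0.16 over 20 (adjusted p = 0.00564), but -0.50 against msl-2 heterozygotes alone (adjusted p = 0.0699). In msl-2 mutants the estimates were -0.53 ± 0.23 (adjusted p = 0.332) and -0.49 ± 0.17 (adjusted p = 0.0646). With the msl-2 groups alone in the fit, wgn passed there at -0.44 (adjusted p = 0.0451).

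Since Dredd and wgn are the X-linked genes among the 10, each was placed among all X genes tested. Among 1560 X genes over 20 libraries, the median change was -0.44 in msl-1, -0.57 in mle, -0.34 in roX1 roX2 and -0.33 in msl-2 mutants. Dredd stood at percentiles 26.7, 40.6, 27.1 and 54.6 of the X genes in the same order of stocks, so near or somewhat below the middle. wgn stood at percentiles 4.55, 7.82, 17.4 and 32.7, near the low end in msl-1 and mle mutants. Over 21 libraries the Dredd percentiles were 43.6, 39.8, 38 and 51.7 and those of wgn 20.7, 8.33, 23.5 and 31. X genes called lower over 20 libraries made up 25.3% (msl-1), 36% (mle), 25.9% (roX1 roX2) and 24.8% (msl-2) of those tested. The 8 autosomal genes had medians of 0.79 (msl-1), 0.39 (mle), 0.19 (roX1 roX2) and 0.09 (msl-2) over 20 libraries, beside medians of -0.05, 0.02, 0.01 and 0.04 over all autosomal genes.

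**Figure D3:**
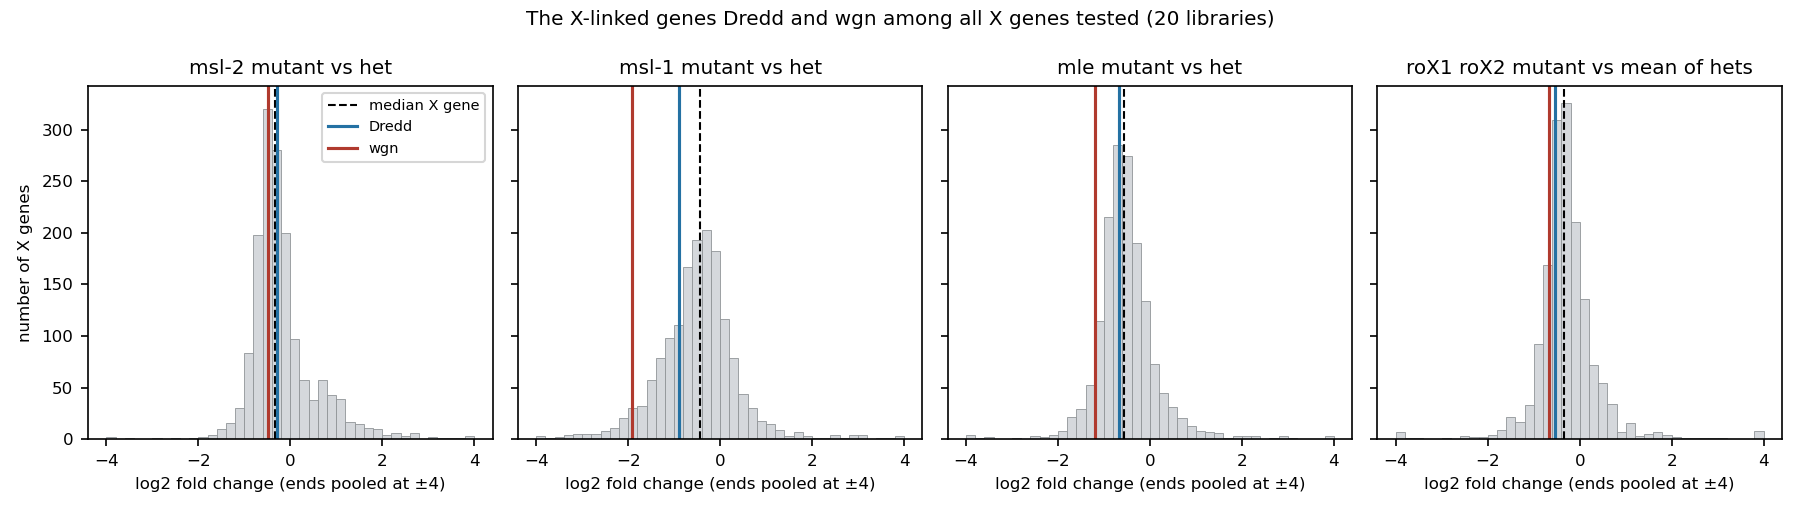
Number of X genes (y axis) by log2 fold change (x axis) in the 4 comparisons over 20 libraries, with the median X gene (dashed) and the X-linked genes Dredd (blue) and wgn (red) as vertical lines. wgn lies in the low tail in msl-1 and mle mutants, and Dredd lies closer to the median.

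Because counts scale with transcript length, levels of different genes were compared per kilobase of exon. In msl-1 mutants Diap1 was at 72.1 ± 7.15 CPM per kb (SD, n = 3), beside 67.8 ± 5.21 for rpr, 59.4 ± 4.06 for hid and 49.8 ± 2.47 for p53. In msl-1 heterozygotes without replicate 2, Diap1 was the highest of the 10 genes at 110 ± 23.2 CPM per kb (SD, n = 2), and rpr, hid and p53 were at 17.7 ± 1.49, 32.8 ± 4.81 and 10.9 ± 2.01 CPM per kb. The caspases Drice and Dronc were at 76 ± 6.38 and 71.2 ± 7.65 CPM per kb in msl-1 mutants. With them, rpr, hid and Diap1 spanned 59.4 to 76 CPM per kb. The adaptor gene Dark (17.3 ± 1.12) and the caspase gene Dredd (28.9 ± 2.5) lay lower. In the heterozygotes rpr, hid, Drice, Dronc and Diap1 were spread from 17.7 to 110 CPM per kb. In the other mutant groups these means lay farther apart: in mle mutants rpr was at 30.9 ± 15.8 and Diap1 at 69.2 ± 10.4 CPM per kb (SD, n = 3), and in msl-2 mutants they were at 22.4 ± 12 and 112 ± 16.1 CPM per kb (SD, n = 4). wgn was the lowest of the 10 in msl-1 mutants at 5.39 ± 0.86 CPM per kb, and in msl-1 heterozygotes it was in the middle of the order at 19.8 ± 0.98.

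**Figure D4:**
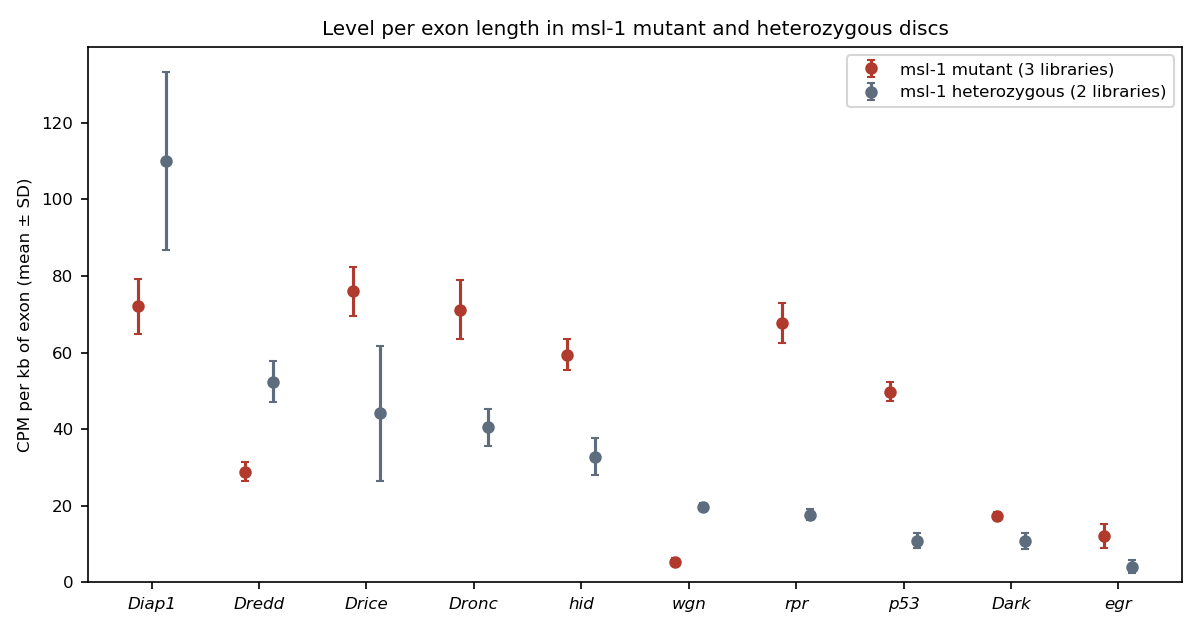
Mean CPM per kb of exon with its SD (y axis) of the 10 genes in msl-1 mutants (red, 3 libraries) and in msl-1 heterozygotes without replicate 2 (grey, 2 libraries), ordered by the heterozygous level. Diap1 stands level with Drice, Dronc and rpr in mutants and apart at the top in heterozygotes.

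Across the 7 groups, the msl-1 mutants were the highest for p53 (106 ± 5.27 CPM), rpr (61 ± 4.7) and hid (239 ± 16.3; SD, n = 3 each), and for none of these did the next group reach them. That next group was the mle mutants in all 3 cases, with 40.6 ± 17.2, 27.8 ± 14.2 and 161 ± 17.3 CPM (SD, n = 3), and from there down each group overlapped its neighbour in the order. For wgn the order ran upwards through the mutants of msl-1 (14 ± 2.23 CPM, n = 3), mle (22.8 ± 5.19, n = 3), roX1 roX2 (30.6 ± 4.36, n = 3) and msl-2 (30.9 ± 3.19, n = 4), then the heterozygotes of msl-2 (44.7 ± 3.35, n = 3), msl-1 (51.3 ± 2.53, n = 2 without replicate 2) and mle (53.7 ± 17.1, n = 2), all with SD. The msl-2 and roX1 roX2 mutants overlapped each other. The mle and msl-1 mutants did not, but only by a narrow margin (lowest mle 16.8 CPM, highest msl-1 16.6 CPM). The difference of their effects on wgn did not pass in either fit. For Dark, Dronc, Drice, Diap1 and egr the ranges of neighbours overlapped along the order, apart from the mle and msl-1 heterozygotes at the low end for Dark.

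The difference between stocks was tested directly for 3 pairs, since a call in one stock alone does not show that stocks differ. The effect in msl-1 minus the effect in msl-2 mutants passed for 5 of the 10 genes over 21 libraries (26.2% of all genes) and for 4 over 20 libraries (15% of all genes). p53 differed by 1.96 ± 0.36 (adjusted p = 0.0052) and 2.11 ± 0.35 (adjusted p = 0.00105). Dronc differed by 1.67 ± 0.42 (adjusted p = 0.0154) and 1.27 ± 0.30 (adjusted p = 0.00879), and Drice by 1.59 ± 0.40 (adjusted p = 0.016) and 1.19 ± 0.27 (adjusted p = 0.00776). Neither caspase passed in msl-2 mutants, and the low msl-1 heterozygous level is part of both differences. wgn differed by -1.07 ± 0.36 (adjusted p = 0.0366) and -1.42 ± 0.29 (adjusted p = 0.00366). rpr differed by 1.73 ± 0.52 over 21 libraries (adjusted p = 0.0249) and missed over 20 (1.56 ± 0.56, adjusted p = 0.0602). By edgeR none of the 10 genes passed for mle minus msl-2 or for msl-1 minus mle mutants in either fit, where 0.0263% and 0.241% of all genes did for mle minus msl-2 and 0.228% and 0.521% for msl-1 minus mle. At an unadjusted p under 0.05 the counts of the 10 genes for mle minus msl-2 were 1 over 21 libraries (3.91% of all genes) and 4 over 20 (11%). For msl-1 minus mle they were 3 (20.3% of all genes) and 4 (13.2%).

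Genes around the 10 were read from lists of their pathways, which were chosen with earlier results of these data known. Counts from these lists, set beside the shares of all genes, are therefore a description and no test of an excess. Of 11 genes of the p53 pathway, p53 included, 9 were higher and 2 lower in msl-1 mutants over 21 libraries (8 and 1 over 20). In the other stocks 4 were higher in msl-2 mutants (6 over 20 libraries), 6 in mle mutants (7) and 6 in roX1 roX2 mutants (6), with none lower. Ku80 and Irbp, the subunits of the Ku heterodimer that binds DNA ends, and mre11 and rad50, of the MRN complex, were higher in all 4 comparisons and both fits. All of these but Irbp lie on the second chromosome, where the balancer limit given above applies. Of all genes tested over 21 libraries, 12.8% were higher and 25.4% lower in msl-1, 0.56% and 0.648% in msl-2, 1.38% and 1.97% in mle, and 3.41% and 1.93% in roX1 roX2 mutants. Over 20 libraries these shares were 10.4% and 12.7% in msl-1, 3.07% and 7.62% in msl-2, 4.06% and 8.96% in mle, and 6.81% and 7.56% in roX1 roX2 mutants. Ku80 was at 64.6, 65.8, 38.7 and 57.6 CPM in msl-2 mutants, against 25.5, 20.9 and 27.8 CPM in msl-2 heterozygotes (1.19 ± 0.20, adjusted p = 0.00341, and 1.22 ± 0.18, adjusted p = 0.000211), a stock in which p53 itself did not differ beyond its spread (0.00 ± 0.25, adjusted p = 0.994, and 0.04 ± 0.22, adjusted p = 0.926). Ku80 was at 139, 135 and 124 CPM in roX1 roX2 mutants, where p53 was not called either. These are RNA levels, and the part of the p53 protein in the change of Ku80 was not tested. Corp, an X-linked gene that encodes a regulator of p53 in flies, was at 25, 15.3 and 21.3 CPM in msl-1 mutants, against 1.05, 9.49 and 2.41 CPM in msl-1 heterozygotes (2.27 ± 0.70, adjusted p = 0.0188, and 3.45 ± 0.75, adjusted p = 0.00178). The X-linked checkpoint kinase gene mei-41 was the gene of this list that was lower in msl-1 mutants in both fits (-1.99 ± 0.49, adjusted p = 0.00658, and -1.38 ± 0.46, adjusted p = 0.0315). Corp and mei-41 were named after their values were seen.

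Of 13 genes from the TNF ligand to the JNK transcription factors, 4 lie on the X: wgn, Traf6, Tak1 and hep. Over 20 libraries 2 of these 4 were called lower in msl-2 mutants (24.8% of all X genes), 2 in msl-1 mutants (25.3%), 3 in mle mutants (36%) and 3 in roX1 roX2 mutants (25.9%). Over 21 libraries the counts were 0 (1.14% of all X genes), 2 (22.9%), 1 (6.47%) and 0 (4.37%). None of the 9 autosomal genes was called lower in any of the 4 comparisons in either fit. The share of all autosomal genes called lower over 21 libraries was 26.1% in msl-1, 1.22% in mle, 1.49% in roX1 roX2 and 0.565% in msl-2 mutants, and over 20 libraries 10.4%, 4.04%, 4.15% and 4.52%, so with 9 genes a count of 0 is near that background in most of these fits. hep, which encodes the kinase that phosphorylates JNK, was at 70.5, 81.3, 77.1 and 76.5 CPM in msl-2 mutants, against 134, 132 and 127 CPM in msl-2 heterozygotes, and passed in all 4 comparisons over 20 libraries (from -0.48 ± 0.12 in roX1 roX2 to -1.12 ± 0.15 in msl-1 mutants). Over 21 libraries hep passed only in msl-1 mutants (-0.80 ± 0.23, adjusted p = 0.0145). Traf4, a second-chromosome gene (2L) for an adaptor of TNF signalling, was at 89.9, 75.6 and 84.6 CPM in msl-1 mutants, against 23.2, 46.8 and 20.8 CPM in msl-1 heterozygotes. It was higher in msl-1 (1.47 ± 0.26, adjusted p = 0.000434), mle (1.47 ± 0.29, adjusted p = 0.00444) and roX1 roX2 mutants (1.13 ± 0.20, adjusted p = 0.00101) over 21 libraries, and missed in msl-2 mutants (0.95 ± 0.24, adjusted p = 0.0597). Over 20 it passed in all 4, as a linear fold 3.66-fold in msl-1 (adjusted p = 1.4e-06), 2.83-fold in mle (adjusted p = 2.38e-05), 2.45-fold in roX1 roX2 (adjusted p = 1.29e-06) and 1.98-fold in msl-2 mutants (adjusted p = 0.00138). grnd, the other receptor gene, is autosomal and passed in none of the 4 comparisons by edgeR, with 190, 228 and 145 CPM in msl-1 mutants, against 180, 39.9 and 119 CPM in msl-1 heterozygotes. The JNK target and phosphatase gene puc and the Fos gene kay were higher in msl-1 mutants in both fits, puc by 0.74 ± 0.21 (adjusted p = 0.0128) and 0.58 ± 0.21 (adjusted p = 0.0457), and kay by 1.52 ± 0.32 (adjusted p = 0.00248) and 1.20 ± 0.25 (adjusted p = 0.00146).

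**Figure D5:**
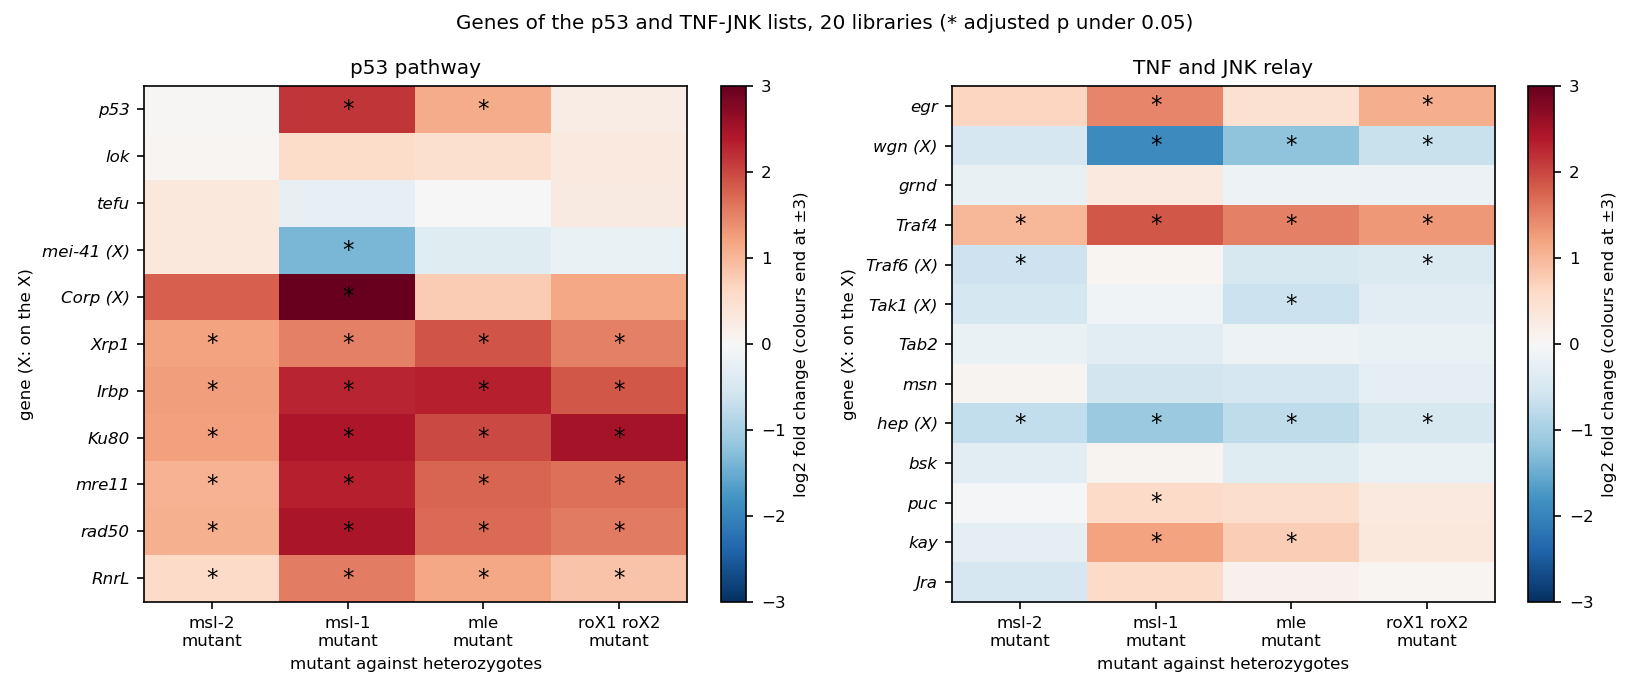
Log2 fold change over 20 libraries (colour, red for higher and blue for lower in mutants) of the genes of the p53 list (left) and of the TNF and JNK list (right) in the 4 comparisons, with an asterisk at an adjusted p under 0.05. The DNA end-binding genes are red in all 4 columns, and the X-linked wgn and hep are the darkest blue rows on the right.

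The other caspase genes, caspase inhibitors and further pathway genes were read beside the shares of all genes. In msl-1 mutants these shares were 12.8% higher and 25.4% lower over 21 libraries, and 10.4% and 12.7% over 20. Those of the other stocks are given with the p53 list. Counts from lists this small are a description beside these shares. Dcp-1, another effector caspase gene, was at 71.9, 103 and 88.7 CPM in msl-1 mutants, against 119, 28.5 and 85 CPM in msl-1 heterozygotes, groups that overlap, and passed in no comparison. Of 8 genes of the apoptosome and caspase list, 2 were higher (Dronc and Drice) and 1 lower in msl-1 mutants over 21 libraries, the lower one being the caspase gene Strica (-1.26 ± 0.42, adjusted p = 0.0266), which missed over 20 libraries (-0.68 ± 0.39, adjusted p = 0.214). Over 20 libraries 3 of the 7 tested were higher (Dark, Dronc and Drice) and 1 lower (Dredd). Of 7 inhibitor and Bcl-2 family genes, 2 were lower there over 21 libraries: dnr1, which encodes an inhibitor of Dredd (-1.97 ± 0.64, adjusted p = 0.0239), and Buffy, a Bcl-2 family gene (-2.50 ± 0.88, adjusted p = 0.0329). dnr1 missed over 20 libraries (adjusted p = 0.204), and Buffy was not tested there. Over 20 libraries 1 gene of this list was higher in msl-1 mutants and none lower: Bruce, which encodes a large IAP protein (0.61 ± 0.19, adjusted p = 0.0214, against 0.46 ± 0.23, adjusted p = 0.113, over 21). Bruce also passed in roX1 roX2 mutants over 20 libraries (0.44 ± 0.14, adjusted p = 0.0315). Of 8 genes around Dredd in the Imd pathway, Rel, which encodes the Relish protein that Dredd cleaves, was higher in msl-1 mutants in both fits (0.62 ± 0.21, adjusted p = 0.0298, and 0.58 ± 0.21, adjusted p = 0.044). The adaptor gene Fadd passed there over 21 libraries (0.80 ± 0.31, adjusted p = 0.0444) and in mle (1.05 ± 0.29, adjusted p = 0.015) and roX1 roX2 mutants (0.64 ± 0.20, adjusted p = 0.0372) over 20. The receptor gene PGRP-LC was lower in msl-1 mutants over 21 libraries (-1.93 ± 0.55, adjusted p = 0.0136) and missed over 20 (adjusted p = 0.333). Of 6 tested genes for the engulfment of dying cells, ced-6, an adaptor gene, was lower in msl-1 mutants in both fits (-0.90 ± 0.26, adjusted p = 0.013, and -1.02 ± 0.25, adjusted p = 0.00465). In the other 3 stocks no gene of this list passed over 21 libraries, and over 20 libraries the X-linked gene prtp was lower in msl-2 (-0.67 ± 0.16, adjusted p = 0.00793), mle (-0.84 ± 0.19, adjusted p = 0.00341) and roX1 roX2 mutants (-0.58 ± 0.15, adjusted p = 0.00989). Of all X genes tested over 20 libraries, 24.8% (msl-2), 36% (mle) and 25.9% (roX1 roX2) were lower. Bruce and prtp were named after their values were seen.

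Markers of other cells that a dissection could carry were read beside these changes. In msl-1 mutants 12.8% of all genes were called higher and 25.4% lower over 21 libraries, and 10.4% and 12.7% over 20. Shares called lower in mle mutants were 1.97% and 8.96%, and shares called higher in msl-2 mutants were 0.56% and 3.07%. The marker counts are a description beside these shares. Hemocytes are blood cells that engulf dying cells. Of 8 hemocyte markers 0 passed over 20 libraries in any of the 4 comparisons by edgeR (1 lower in msl-1 mutants over 21). Their sum was 136 to 291 CPM in msl-1 mutants, against 145 to 410 CPM in msl-1 heterozygotes. Tracheal markers summed to 1270 to 2510 CPM in msl-1 mutants, against 268 to 1140 CPM in msl-1 heterozygotes (3 of 4 higher and 1 lower over 21 libraries, 0 of 4 over 20), and neuronal markers to 58.3 to 78.2 CPM, against 122 to 446 CPM (4 of 4 lower over 21 libraries, 3 over 20). Of the 5 wing disc markers, 2 were lower in msl-1 mutants over 21 libraries and 4 over 20, and 0 and 3 in mle mutants. In msl-2 mutants 5 larval muscle markers summed to 503 to 1200 CPM, against 110 to 179 CPM in msl-2 heterozygotes (1 higher in both fits). The 6 fat body markers summed to 41.3 to 4150 CPM, against 22.6 to 66.3 CPM (0 higher over 21 libraries, 1 over 20). The 4150 CPM belong to msl-2 mutant replicate 2, with 370 CPM as the next highest mutant value. In mle mutants the muscle markers summed to 271 to 618 CPM, against 171 to 258 CPM in mle heterozygotes (0 called in either fit). In each of these lists every marker was read in every group. What part these cells have in the changes of the 10 genes was not tested.

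To describe which other genes ran alongside the 10, Pearson's r of log2 CPM over the 20 libraries was ranked among 8228 genes that averaged 5 CPM or more, and the top 2 of each were noted. The libraries share their groups, so r holds the differences between groups. For wgn these were al (r = 0.967) and klu (r = 0.958), which encode transcription factors, for Dredd the homeobox gene hth (r = 0.901) and CG11438 (r = 0.898), and for Diap1 asRNA:CR45867 (r = 0.935) and fwe (r = 0.93), the flower gene known for marking losers of cell competition. For p53 they were the glutathione transferase gene GstE7 (r = 0.928) and the JAK/STAT ligand gene upd1 (r = 0.928), and for hid insc (r = 0.87) and the ligand gene upd3 (r = 0.86). For rpr they were mgr (r = 0.901) and CCT4 (r = 0.893), which encode a prefoldin and a chaperonin subunit, and for egr Cyp9f3 (r = 0.889) and Arc2 (r = 0.874). Dronc had CG5510 (r = 0.837) and Mvl (r = 0.833), Drice had AsnRS (r = 0.883) and Pop2 (r = 0.881), and Dark had the overlapping asRNA:CR44390 (r = 0.867) and CG11007 (r = 0.864).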

How the data were processed

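Male wing disc RNA was sequenced in 21 libraries of 7 groups. The authors deposited 1 table of raw read counts per FlyBase gene. Per the submitters' processing notes, reads were handled with FastQC 0.11.7, STAR 2.6.1b, SAMtools 1.9, featureCounts (Subread 1.6.1), DESeq2 1.18.1, MultiQC 1.6 and deepTools 3.1.2 and the builds dm6 and BDGP6, and the strand setting is not given in the sources used here. Values of overlapping and antisense genes are therefore uncertain.

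Totals of 830905 to 4131600 counts limit the precision of weak genes such as egr. Tests used edgeR 4.0.16 in R 4.3.3 (robust quasi-likelihood, 1 mean per group, filterByExpr, TMM factors from genes of chromosomes 2 and 3, Benjamini-Hochberg adjustment over all genes tested, threshold 0.05). SEs were obtained by dividing each log2 fold change by the square root of its F statistic. Coordinates and exon lengths come from the Ensembl annotation of BDGP6, which shares dm6 coordinates, and 17252 of 17558 genes matched by identifier. CPM per kb divides CPM by the length of all exons together. The code was tested on simulated counts.

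The main fits did not pair libraries by replicate number. Correlations of deviations from the group means ran from -0.281 to 0.0933 for same-numbered mutant and heterozygous libraries. For different-numbered ones they ran from -0.193 to 0.286. In such small groups the deviations partly cancel, so these values cannot decide whether the libraries were paired. Alternatives were each library left out, TMM on all genes, no filter or a filter of 1 CPM in 3 libraries, DESeq2 1.42.0, fits on the compared groups alone, a replicate block and other controls for roX1 roX2. The 20-library values repeat the fit without heterozygous msl-1 replicate 2, and their own alternatives were added after the data were seen. The 10 genes, the pathway and marker lists (with the markers btl, ap and wg unmatched) and the rule for named genes were chosen with earlier results of these data known. That rule names the 10 genes and up to 4 called genes per pathway list, with grim, skl, Dcp-1 and grnd. Those up to 4 were called in the most comparisons over 21 libraries, with the smallest adjusted p as the second criterion.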

Additional observations from a re-analysis of the deposited data

Results flagged for a closer look

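In msl-2 mutants egr was at 19.2 CPM in replicate 2 and at 11.8 to 12.2 CPM in the other 3 libraries, a gap of 0.946 of the whole range. Groups of 4 libraries were checked for 10 genes, and chance flags about 1 in 20 such groups. The same replicate 2 held the highest sum of fat body markers (4150 CPM, against 215, 41.3 and 370 CPM in replicates 1, 3 and 4). It also held the highest sum of larval muscle markers (1200 CPM, against 814, 532 and 503 CPM). What part these cells have in its egr value was not tested.

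For 5 genes the effect in msl-1 mutants differed from the effect in msl-2 mutants by the test of the difference itself over 21 libraries. The differences, as log2 effect in msl-1 minus log2 effect in msl-2 mutants, were 1.96 for p53, 1.73 for rpr, 1.67 for Dronc, 1.59 for Drice and -1.07 for wgn. All but that of rpr also passed over 20 libraries. Each difference rests on 2 sets of controls, and those of Dronc and Drice contain a lower level in msl-1 than in msl-2 heterozygotes.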

How the results depend on the processing

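Changes of the 10 genes were recomputed under up to 30 alternatives per comparison. No called value changed sign. Leaving out 1 library gave 25 to 1108 genes called in msl-2, 1696 to 6599 in msl-1, 30 to 1350 in mle and 262 to 1490 in roX1 roX2 mutants, and 0 to 0, 6 to 9, 0 to 5 and 0 to 4 of the 10 genes. From the 20 libraries it gave 421 to 1341, 973 to 2572, 458 to 1517 and 1029 to 1628 genes, and 0 to 2, 5 to 10, 1 to 5 and 2 to 6 of the 10. For differences of effects it gave 3 to 5 (msl-1 minus msl-2), 0 to 0 (mle minus msl-2) and 0 to 2 (msl-1 minus mle), and between heterozygous groups 1 to 4 (msl-1 minus msl-2), 0 to 0 (mle minus msl-2) and 0 to 3 (msl-1 minus mle). Where a fit kept 1 library of a group, that library was assumed to vary like the other groups.

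Over 21 libraries, no filter gave 87 genes in msl-2 and 199 in mle mutants, with 0 of the 10 in mle, and the CPM filter gave 239 and 1 in mle. Fits on the compared groups alone gave 1218 genes in msl-2 (1 of the 10), 442 in msl-1 (2 of the 10), 829 in mle and 273 in roX1 roX2 mutants. DESeq2 gave 366 genes in msl-2 and 773 in mle, and 1 of the 10 in roX1 roX2. With the replicate block, 28, 1171 and 136 genes passed in msl-2, msl-1 and mle, with 3 of the 10 in msl-1 and 0 in mle. Against msl-1 or mle heterozygotes, 2013 or 305 genes passed in roX1 roX2.

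Over 20 libraries, 3 of the 10 passed in mle without a filter and 2 with those groups alone (829 genes), and 1 in msl-2 with those groups alone. The replicate block gave 714 genes in msl-2 and 2 of the 10 in mle. Against msl-2 or mle heterozygotes 2 of the 10 passed in roX1 roX2, and against msl-1 heterozygotes 717 genes. The causes were not tested. Low totals limit weak genes such as egr. Whether the replicate numbers shared by the groups pair the libraries is not known. A call lost under the block is therefore given without a reading of its cause.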
